A study of Mus musculus with 3 samples.

Results

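Selp, Sele, Icam1, Vcam1, Madcam1, Ackr1, Plvap and Pecam1 are 8 genes of the vessel wall whose products let white blood cells leave the blood. They were chosen by name, and all 8 were found among the 31053 genes of the deposited gene table. Their levels were followed in cells of the anorectal junction of C57Bl/6 mice, bought at 6 weeks of age from Jackson Laboratory, the border between colonic columnar and anal squamous epithelium. Distal colon and anus of 5 mice were pooled for each of 3 libraries, 1 per day. The day 0 library came from untreated mice, with histology given as normal. The day 7 library came from mice that drank 3% dextran sulfate sodium (DSS), an agent that injures the gut lining, for 6 days, with histology given as severe colitis. The day 42 library came from mice given the same 6 days of DSS, with histology given as recovered. The labels name no transgene or deleted allele. With 1 pooled library per day there are no replicates, so no test between days was possible, and day, treatment, library and age at dissection cannot be told apart.

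White blood cells in flowing blood first tether to and roll on selectins, then are activated by chemokines held on the vessel wall, then stop when their integrins bind immunoglobulin-family ligands, and last pass between or through endothelial cells. P-selectin (Selp) is stored in granules of venular endothelium and of platelets, while E-selectin (Sele) is made after cytokine stimulation. In the gut, MAdCAM-1 (Madcam1) on venules binds lymphocytes that carry the integrin alpha4beta7, and ACKR1 marks the venous endothelium where it carries chemokines across the wall.

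The authors annotated 100 endothelial cells on day 0, 312 on day 7 and 122 on day 42, and named a separate lymphatic population of 63, 190 and 84 cells. The endothelial cells were 0.906% (95% exact binomial interval 0.738 to 1.10), 2.17% (1.94 to 2.42) and 1.05% (0.869 to 1.25) of the 11037, 14376 and 11667 cells in the libraries. They held 421590, 2465781 and 372324 unique molecular identifiers (UMIs, each 1 captured molecule), with medians of 3603, 6752.5 and 2575.5 per cell. All 10 endothelial markers were detected on each day, with summed levels of 6549, 5212 and 4292 counts per 1000000 UMIs of the class (CPM). In the lymphatic cells all 7 lymphatic markers were found, at 25710, 40154 and 24924 CPM, against 52.2, 58.4 and 29.5 CPM in the endothelial cells. All 4 B cell markers were at 0 in endothelial cells. Libraries shared between 40 and 55 cell barcodes pairwise, and 4 endothelial barcodes also occurred in another library. The intervals reflect counting error alone and leave out differences among mice.

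Endothelial cells on day 7 carried higher levels of the rolling receptors, the integrin ligands and Ackr1 than on day 0, and 5 of these 6 genes were still counted as higher on day 42. The caveolar and junctional genes Plvap and Pecam1 differed far less. Days were compared as the log2 ratio of CPM with 10 CPM added to both, and a gene was counted as higher or lower when this ratio was at least 1 in size. On day 7, 6 of 8 members were higher (Selp, Sele, Icam1, Vcam1, Madcam1 and Ackr1), against 6.16% of the 7078 genes with at least 20 CPM on either day. On day 42, 5 of 8 were higher (the same genes without Icam1), against 6.52% of 7193 genes. Members lower numbered 0 of 8 at both days, where 7.19% and 7.44% of genes were lower. Between day 7 and day 42 the sole member past that size was Icam1, which was lower, against 3.37% of 7001 genes lower and 3.39% higher. Without the 5 cells with most UMIs of the gene on each day, Vcam1 (-1.19) and Madcam1 (-1.05) were also past that size. The 6 ratios of day 7 to day 0 then lay between 2.37 and 4.11. Madcam1 was carried by 4, 83 and 19 cells and Vcam1 by 9, 154 and 34. Leaving out a fixed 5 cells thus takes a larger part of the carriers on day 0 and day 42 than on day 7, and all Madcam1 carriers of day 0. This step by itself tends to move the ratios that way, so these values are no check of them. The day 7 and day 42 comparisons share the day 0 library. In these pools, more cells of 1 vessel type and more RNA per cell cannot be told apart from the summed level. The cell by cell values below are a description, and neither account was tested.

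**Figure D1:**
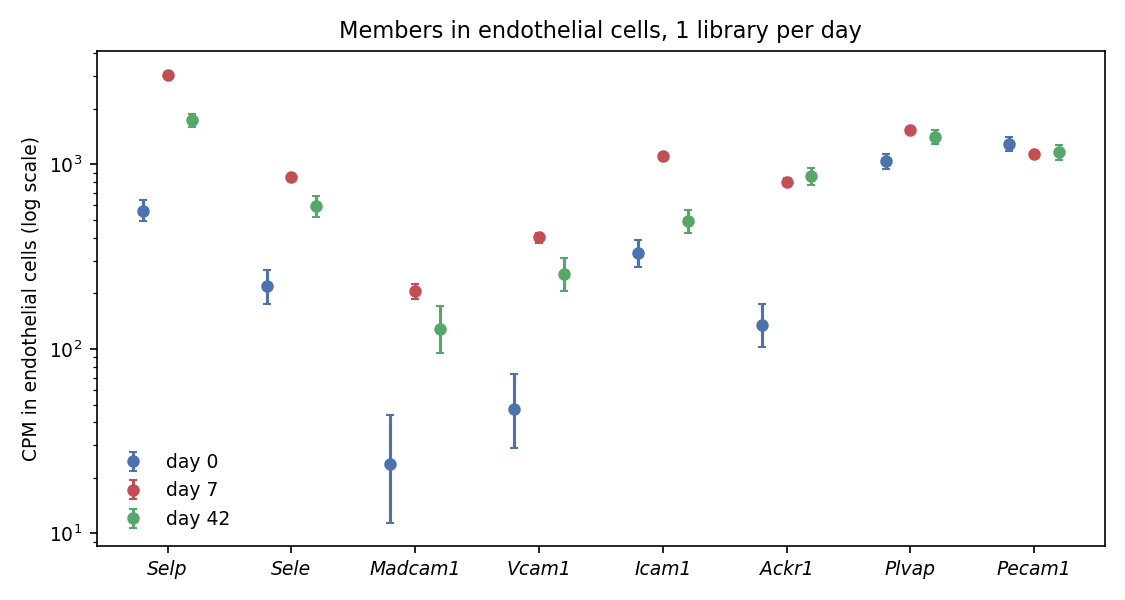
Level of each of the 8 genes in endothelial cells, as CPM on a log axis, with 1 point per library (day 0, day 7, day 42) and 95% exact Poisson intervals, which cover counting error only. Selp reached 3051 CPM on day 7 against 562 on day 0, while the 3 points of Pecam1 lay between 1135 and 1290.4 CPM.

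Both selectin genes were at their lowest on day 0. Selp, on chr1:164115264-164150026 (plus strand, GRCm38), stood at 562 CPM on day 0 (95% Poisson interval 493 to 638), 3051 on day 7 (2982 to 3121) and 1735 on day 42 (1604 to 1874). These 3 intervals did not overlap. The ratio to day 0 was 5.43-fold on day 7 (95% counting interval 4.77 to 6.20) and 3.09-fold on day 42 (2.66 to 3.60). Sele, on chr1:164048234-164057677 (plus strand), stood at 218 CPM on day 0 (176 to 268), 853 on day 7 (817 to 890.1) and 594 on day 42 (518 to 677). Its ratio to day 0 was 3.91-fold on day 7 (3.17 to 4.87) and 2.72-fold on day 42 (2.12 to 3.51). On day 0, 5 cells held 73.9% of its UMIs, and without the 5 cells with most Sele UMIs on each day the log2 ratios were 3.47 and 2.67 in place of 1.92 and 1.40. Sele was carried by 16, 191 and 57 cells, so this step takes out a larger part of the carriers on day 0. Both were lower on day 42 than on day 7, by 0.81 for Selp and 0.52 for Sele on the log2 scale, which is short of the size used to count a gene.

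The ligands of integrins followed different courses. Madcam1, the gut ligand of alpha4beta7, lies on chr10:79664559-79668537 (plus strand) and had 10 UMIs on day 0, 506 on day 7 and 48 on day 42. As a level this was 23.7 CPM (11.4 to 43.6), 205 (188 to 224) and 129 (95.1 to 171), an 8.65-fold ratio on day 7 (4.67 to 18.2) and a 5.44-fold ratio on day 42 (2.72 to 12.05). Vcam1, whose product binds alpha4 integrins more widely, lies on chr3:116109949-116129688 (minus strand) and stood at 47.4 CPM (29.0 to 73.3), 402 (377 to 428) and 255 (206 to 312). Its ratio to day 0 was 8.47-fold on day 7 (5.46 to 13.9) and 5.38-fold on day 42 (3.30 to 9.20), close to the folds of Madcam1, with counting intervals that overlap. Icam1, the ligand of the beta2 integrins LFA-1 and Mac-1, lies on chr9:21015985-21028817 (plus strand) and stood at 330 CPM (277 to 389) on day 0, 1114 (1073 to 1157) on day 7 and 492 (423 to 568) on day 42. Icam1 was thus 3.38-fold of day 0 on day 7 (2.85 to 4.04) but 1.49-fold on day 42 (1.19 to 1.87), and was lower on day 42 than on day 7 by 1.16 on the log2 scale. With every cell thinned to 1000 UMIs this last ratio was -0.94 in 1 random draw, short of the size counted, and -1.42 in another.

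Ackr1 stood about as high on day 42 as on day 7. This venular chemokine receptor lies on chr1:173331886-173333750 (minus strand) and stood at 135 CPM on day 0 (102 to 175), 807 on day 7 (772 to 844) and 862 on day 42 (770.4 to 962). The ratio to day 0 was 5.97-fold (4.59 to 7.91) on day 7 and 6.38-fold (4.80 to 8.61) on day 42, and the 2 later days differed by 0.09 on the log2 scale. Ackr1 overlaps Cadm3 on the same strand in GENCODE M21, and Cadm3 itself had 3, 54 and 10 UMIs in endothelial cells. Plvap, which forms the diaphragms of caveolae and fenestrae, lies on chr8:71497765-71511752 (minus strand) and stood at 1039 CPM (944 to 1141), 1541 (1493 to 1591) and 1413 (1295 to 1539), a 1.48-fold ratio on day 7 (1.34 to 1.64). Pecam1, the junctional molecule of transmigration, lies on chr11:106654217-106750628 (minus strand) and stood at 1290.4 CPM (1184 to 1403), 1135 (1093 to 1178) and 1166 (1059 to 1281). Its log2 ratio to day 0 was -0.18 on day 7 and -0.15 on day 42, near the middle of all genes, whose median on day 7 was -0.06.

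**Figure D2:**
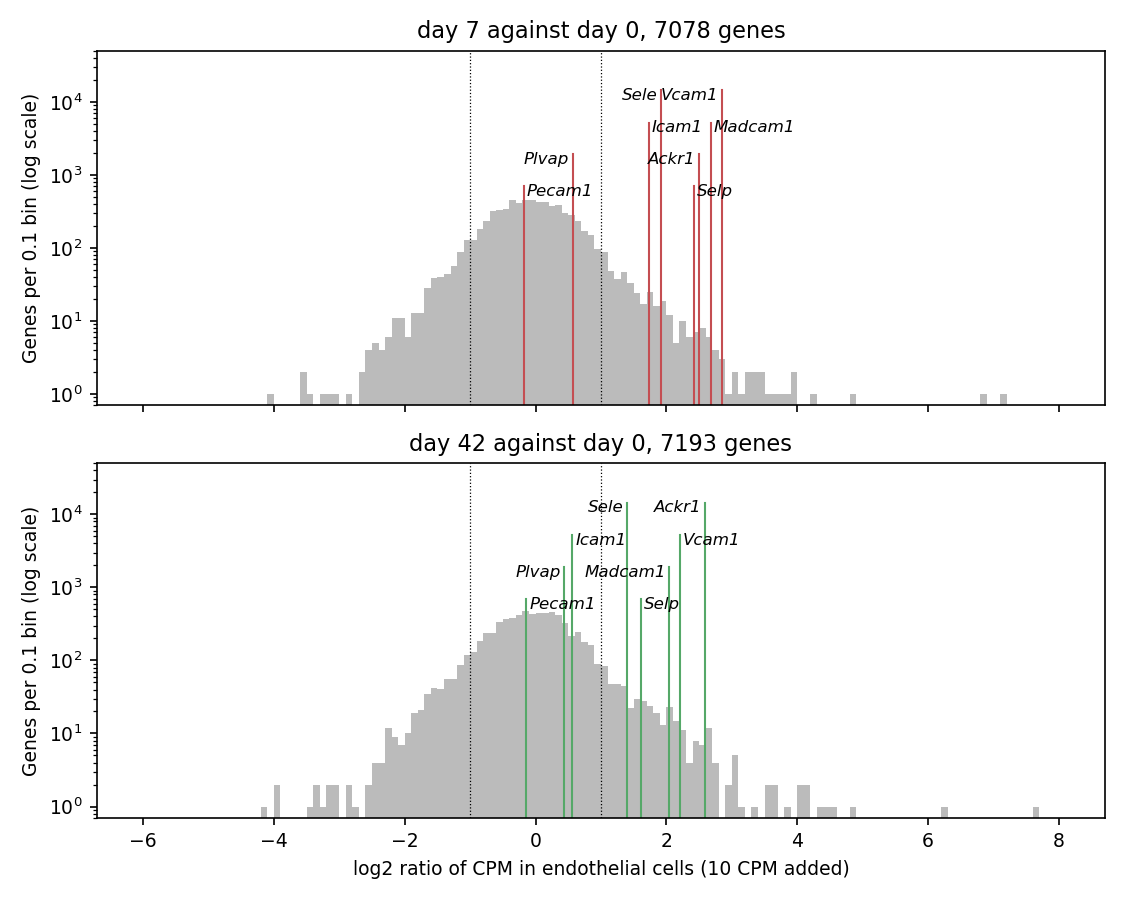
Distribution of log2 ratios of CPM in endothelial cells (10 CPM added) over all genes with at least 20 CPM on either day, for day 7 (upper panel) and day 42 (lower panel) against day 0, with the number of genes per bin on a log axis, the 8 members marked by coloured lines and dotted lines at -1 and 1. The lines of Selp, Sele, Vcam1, Madcam1 and Ackr1 stand in the right tail in both panels, while Icam1 does so on day 7 only and stands at 0.56 on day 42.

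Since the selectin genes and Madcam1 were higher together, the bases before their starts are shown with motif matches in capitals. RefSeq windows (GRCm38.p6) were held for 5 of the 8 members (Selp, Sele, Icam1, Madcam1 and Ackr1). Each line gives the 250 bases before the gene start, 5′ to 3′ on the gene's strand. They cover chr1:164115014-164115263 for Selp, chr1:164047984-164048233 for Sele and chr10:79664309-79664558 for Madcam1, all on the plus strand.
Selp: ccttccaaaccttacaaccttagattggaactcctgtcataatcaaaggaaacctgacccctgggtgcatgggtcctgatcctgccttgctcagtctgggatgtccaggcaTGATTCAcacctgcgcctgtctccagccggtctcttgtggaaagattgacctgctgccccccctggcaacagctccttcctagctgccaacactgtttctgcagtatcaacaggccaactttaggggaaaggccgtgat
Sele: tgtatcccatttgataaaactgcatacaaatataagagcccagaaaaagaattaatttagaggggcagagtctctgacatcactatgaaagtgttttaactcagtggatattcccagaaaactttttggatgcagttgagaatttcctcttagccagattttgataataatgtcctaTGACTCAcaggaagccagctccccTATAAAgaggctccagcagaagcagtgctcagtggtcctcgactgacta
Madcam1: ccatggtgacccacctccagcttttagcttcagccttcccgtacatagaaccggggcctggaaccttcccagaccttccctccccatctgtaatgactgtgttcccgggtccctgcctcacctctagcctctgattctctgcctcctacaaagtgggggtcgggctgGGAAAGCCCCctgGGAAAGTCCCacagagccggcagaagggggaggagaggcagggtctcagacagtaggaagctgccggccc
The motifs searched on both strands were the AP-1 motif TGANTCA, the TATA box TATAAA and the consensus kappaB site, and no match overlapped another. The AP-1 motif reads alike on both strands. It lay 139 bases before the start of Selp and 73 before that of Sele, and was present in 7.81% of 32851 windows of 300 bases. The capitals nearest the end of the Sele stretch are a TATA box at 49 bases before the start, a match held by 13.6% of windows. Madcam1 held 2 kappaB matches, 83 and 70 bases before its start on the minus strand, where 8.46% of windows had at least 1. In Icam1 the sole match was a TATA box 13 bases after the RefSeq start, and in Ackr1 there was no match. For these genes the RefSeq start differs from the GENCODE start given above. The Icam1 window covers chr9:21015690-21015989, and its TATA box lies before the GENCODE start of 21015985. The 250 bases searched before the RefSeq start of Ackr1 (chr1:173333504-173333753) lie mostly within the gene as placed by GENCODE. A match describes the letters and not the binding of a factor, and no match says that these letters were not in the window.

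More endothelial cells carried these genes after DSS. Because depth differed between days, each cell was thinned to 1000 UMIs, which kept 96, 299 and 104 cells and left out 4, 13 and 18. Selp was then detected in 17.7% of cells on day 0, 64.2% on day 7 and 59.6% on day 42, against 23.0%, 72.4% and 72.1% without thinning. The thinned shares were 9.38%, 40.5% and 34.6% for Sele, 11.5%, 39.8% and 40.4% for Ackr1, and 5.21%, 21.4% and 18.3% for Vcam1. Madcam1 was found in 2.08%, 11.7% and 11.5% of thinned cells, and Icam1 in 14.6%, 45.8% and 24.0%. Plvap (52.1%, 64.2% and 70.2%) and Pecam1 (67.7%, 64.5% and 71.2%) were widespread on all days. T cells, which should lack these venular genes, carried Selp in 0%, 0.926% and 0% of thinned cells, at a median depth before thinning of 2064, 2260.0 and 1393 UMIs.

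The genes were often found together. Of Selp, Sele, Vcam1, Madcam1 and Ackr1, at least 1 was detected in 19.8% of thinned cells on day 0 (95% exact binomial interval 12.4 to 29.2), 72.2% on day 7 (66.8 to 77.2) and 73.1% on day 42 (63.5 to 81.3). At least 3 of the 5 were detected in 9.38%, 32.8% and 26.9%. In thinned cells, Sele was detected in 52.9%, 59.4% and 46.8% of those with a Selp UMI and in 0%, 6.54% and 16.7% of those without. Vcam1 was detected in 23.5%, 29.2% and 27.4% against 1.27%, 7.48% and 4.76%. Without thinning, among the 23, 226 and 88 cells with a Selp UMI, 15, 184 and 54 also had a Sele UMI. Sele stood at 1007, 1099 and 747 CPM in cells with a Selp UMI and at 6.02, 14.3 and 37.3 CPM in the rest. Madcam1 was almost wholly within Selp-bearing cells, at 112, 265 and 164 CPM against 0, 1.79 and 0 CPM in cells without a Selp UMI. Deeper cells are more likely to show both genes. For comparison, Selp stood at 537, 3041 and 1766 CPM in cells with a Pecam1 UMI and at 2891, 3497 and 1380 CPM in the 4, 31 and 19 cells without.

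**Figure D3:**
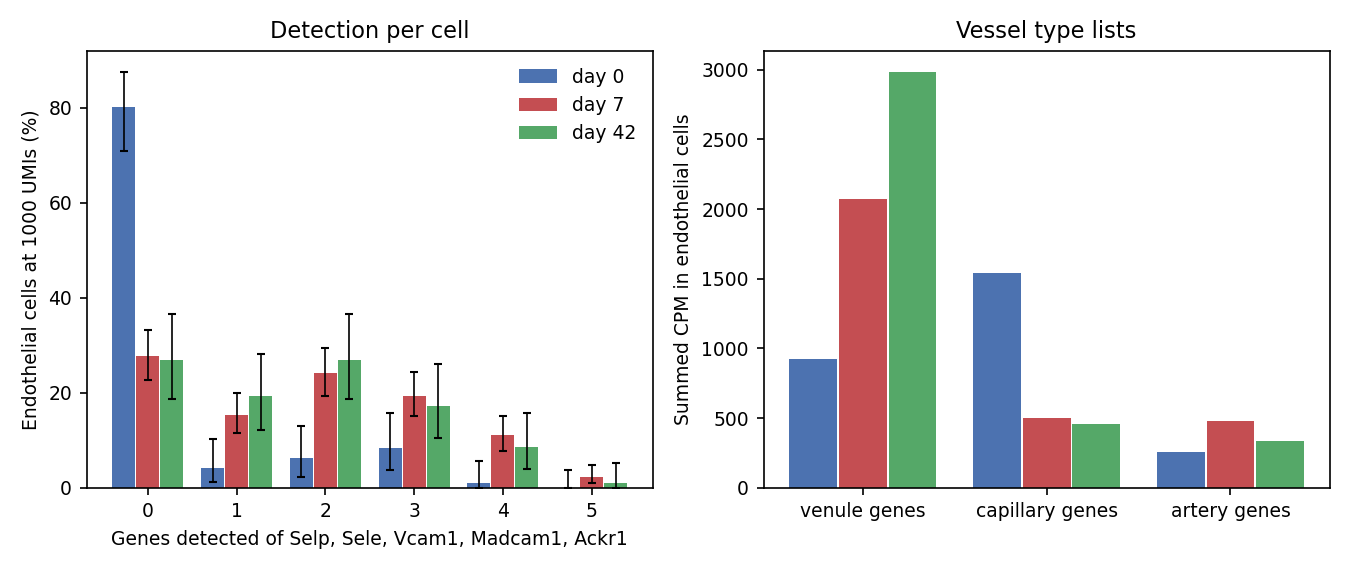
Left, share of endothelial cells (thinned to 1000 UMIs, in percent) with 0 to 5 of Selp, Sele, Vcam1, Madcam1 and Ackr1 detected, by day, with 95% exact binomial intervals. Right, summed CPM in endothelial cells of 3 lists of vessel type genes by day, with 1 library per bar: cells with 0 detected were 80.2% on day 0, 27.8% on day 7 and 26.9% on day 42, and the venule genes summed to 927, 2073 and 2987 CPM.

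Genes of vessel types moved beside the members. Over all genes in endothelial cells, 6.16% were higher and 7.19% lower on day 7, and 6.52% and 7.44% on day 42. Of 5 venule genes, 3 were higher on day 7 (Nr2f2, a venous transcription factor, Lrg1 and Il1r1) and 4 on day 42 (with Vwf), and 0 were lower. Their median log2 ratio was 1.02 on day 7 and 1.40 on day 42. Lrg1 was also higher on day 7 in lymphatic cells, fibroblasts, T cells, macrophages and columnar cells, and Il1r1 in fibroblasts, so neither change was limited to blood vessels. Neutrophils held Lrg1 at 1108 CPM on day 7, near its 1080.4 CPM in endothelial cells, and the part of neutrophil RNA in it was not tested. Of 6 capillary genes, 4 were lower on day 7 (Cd36, Rgcc, Gpihbp1 and Cd300lg) and 3 on day 42 (without Cd300lg), and their summed level was 1542, 502 and 459 CPM. Gpihbp1, which anchors lipoprotein lipase in capillaries, stood at 370.0, 67.3 and 34.9 CPM. Of 7 artery genes, 3 were higher on day 7 (Gja4, Gja5 and Fbln5). On day 42, 2 of them were higher (Gja5 and Fbln5) and Efnb2 was lower.

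The endothelial cells were also compared by the vessel list genes they carried. These lists themselves differed between days and a UMI of them is more often found in deeper cells, so the values are a description. In cells with at least 1 UMI of the venule list (69, 273 and 112 cells), the same 6 and 5 members were higher, where 6.61% of 7124 genes were higher on day 7 and 6.91% of 7132 on day 42. In cells without any UMI of the capillary list (23, 86 and 53 cells, median depth 1866, 1967 and 2476 UMIs), 1 of 8 members was higher on day 7 and on day 42, and that was Vcam1. Over all genes in these cells, 22.0% of 6733 were higher and 16.5% lower on day 7, and 24.7% of 7062 were higher and 14.7% lower on day 42. There Selp stood at 1879 CPM on day 0, 2704 on day 7 and 1736 on day 42, a log2 ratio of 0.52 on day 7 and -0.11 on day 42. Madcam1 in these cells rested on 8, 25 and 21 UMIs, with a log2 ratio of -0.81 on day 7, and Vcam1 stood at 132, 709 and 381 CPM. Icam1 went from 902 CPM to 1249 and 498, so its ratio on day 42 turned from 0.56 in all cells to -0.84 here. In the remaining cells, those with a capillary list UMI (77, 226 and 69), Selp stood at 372, 3100.1 and 1734 CPM. What part of each difference comes from the mix of vessel types was not tested.

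The endothelial cells were also split by a UMI of Ackr1. This splits the cells by a member that itself differed between days, so the values are a description. Cells with an Ackr1 UMI numbered 19 on day 0, 183 on day 7 and 70 on day 42, with median depths of 3339, 7415 and 2857.5 UMIs. Within them Selp was 1.83-fold of day 0 on day 7 (95% counting interval 1.58 to 2.14) and 0.927-fold on day 42 (0.782 to 1.10). Sele was 1.42-fold (1.10 to 1.85) and 0.936-fold (0.703 to 1.26). Icam1 was 2.61-fold (1.94 to 3.602) and 1.09-fold (0.776 to 1.56), and Madcam1 was 2.301-fold (1.24 to 4.83) and 1.35-fold (0.670 to 3.00). Vcam1 was 3.39-fold (1.88 to 6.82) and 2.31-fold (1.23 to 4.81), the one member whose interval on day 42 lay above 1. Among cells without an Ackr1 UMI (81, 129 and 52 cells) Selp was 3.54-fold on day 7 (2.68 to 4.75) and 4.13-fold on day 42 (2.91 to 5.89). A split by Selp in place of Ackr1 gave other values for Sele. In cells with a Selp UMI it was 1.09-fold (0.884 to 1.36) on day 7 and 0.742-fold (0.578 to 0.960) on day 42. In cells without a Selp UMI (77, 86 and 34 cells) Icam1 was lower on day 7, at 0.515-fold of day 0 (0.375 to 0.705), with levels of 271, 140 and 162 CPM.

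**Figure D4:**
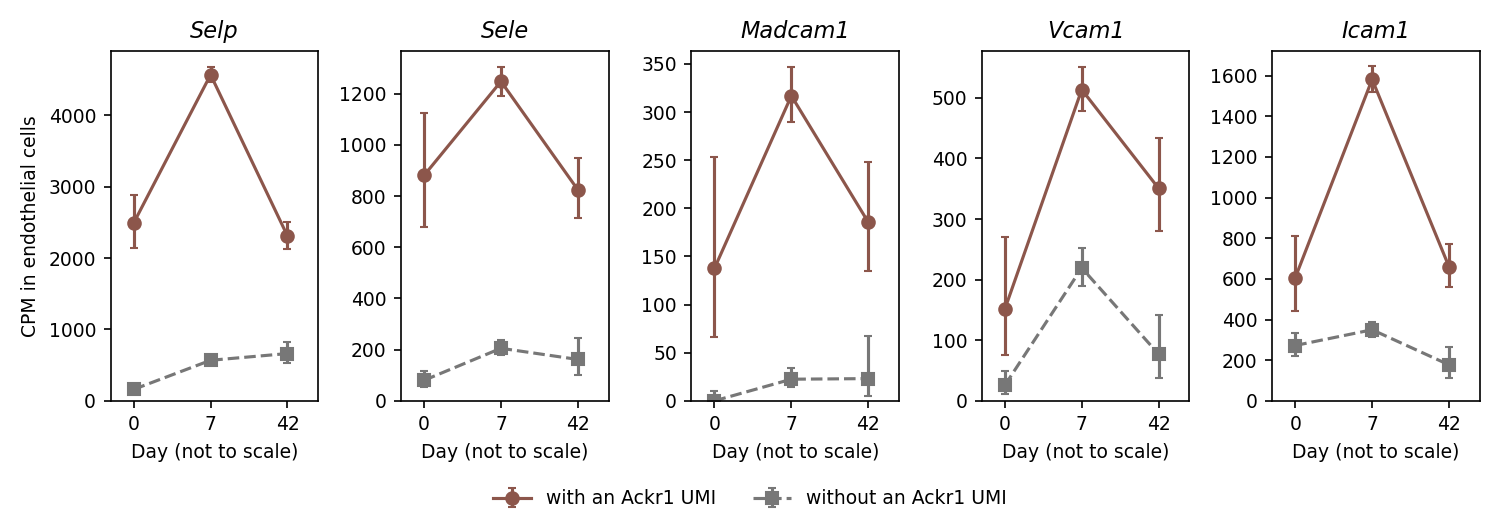
CPM of Selp, Sele, Madcam1, Vcam1 and Icam1 by day in endothelial cells with an Ackr1 UMI (circles, solid line) and without (squares, dashed line), with 95% exact Poisson intervals, 1 library per day and a separate scale per panel starting at 0. In cells with an Ackr1 UMI the day 7 point is the highest of the 3 in every panel, and Selp stood at 2492, 4568 and 2310 CPM.

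Markers of other cell kinds were read in the same endothelial cells. Markers of neutrophils summed to 0, 2847 and 231 CPM and markers of keratinocytes to 574, 1453 and 3336 CPM. Markers of platelets, which themselves hold P-selectin, summed to 7.12, 83.1 and 48.3 CPM, and those of red cells to 7.12, 288 and 2.69 CPM. The neutrophil and platelet markers were highest on day 7, as were Selp, Sele, Icam1, Vcam1 and Madcam1. In the 100, 119 and 115 cells with no UMI of a neutrophil marker, the same 6 members were higher on day 7 and 5 on day 42, with Selp at 2.49 on the log2 scale on day 7. In those cells 5.45% of 7052 genes were higher on day 7 and 6.57% of 7304 on day 42. In the 97, 241 and 106 cells with no UMI of a platelet marker these counts were again 6 and 5, with Selp at 2.42, where 6.09% of 7060 genes were higher on day 7 and 6.78% of 7276 on day 42. Ppbp was the sole platelet marker to reach 20 CPM (2.37, 64.1 and 43.0 CPM) and stood far higher in squamous cells (196, 715 and 1854 CPM), so the platelet sum is not particular to platelets. The 6 fibroblast markers summed to 109, 103 and 435 CPM, with Col1a2 and Dcn higher on day 42 (Dcn at 66.4, 82.7 and 298 CPM), and Vcam1 and Icam1 are members that fibroblasts also carried. The 6 pericyte or smooth muscle markers summed to 9.49, 41.8 and 18.8 CPM, with Rgs5 at 0 and Acta2 higher on day 7 (2, 97 and 2 UMIs). Of the 4 macrophage or monocyte markers, Lyz2 alone reached 20 CPM. Its log2 ratio was 2.59 on day 7 against day 0 and -2.59 on day 42 against day 7. The part of keratinocyte, red cell, fibroblast, smooth muscle or macrophage RNA was not tested.

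The authors' endothelial name covered 2 of their clusters. Cluster 16 held 97, 290 and 113 cells, and cluster 27 held 3, 22 and 9. On day 7, cluster 27 had Selp at 20.2 CPM and Sele, Madcam1 and Ackr1 at 0, against 3245, 908, 218 and 859 CPM in cluster 16. Vcam1 (445 against 399 CPM) and Pecam1 (1684 against 1100.0 CPM) were present in both. The clusters were made from the same cells' expression, so this is a description. Without cluster 27 the same 6 and 5 members were higher, where 6.33% of 7041 genes were higher on day 7 and 7.12% of 7319 on day 42.

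Lymphatic cells shared Pecam1 and Icam1 but almost none of the venular genes. Pecam1 stood at 607, 575 and 737 CPM. Icam1 stood at 53.8 CPM (26.9 to 96.3) on day 0, 269 (234 to 308) on day 7 and 115 (70.4 to 178) on day 42, a course like that in endothelial cells at a lower level. Plvap rested on 5, 159 and 26 UMIs, at 24.5 (7.95 to 57.1), 202 (172 to 236) and 150 CPM (97.8 to 219). Selp had 0, 22 and 4 UMIs in all, or 1.90 times on day 7 and 1.57 times on day 42 the level that a floor of 3 UMIs on day 0 allows. The lower counting limit of the ratio to day 0 was 1.42 on day 7 and 0.777 on day 42, so on day 42 the 4 UMIs do not separate Selp from day 0. Madcam1 was at 0 on each day, Vcam1 had 2 UMIs on day 42 alone, and Sele and Ackr1 had 1 UMI each, on day 7. Of 8 members, 4 reached 20 CPM, and 3 were higher on day 7 (Selp, Icam1 and Plvap), against 6.96% of 7098 genes higher and 5.45% lower. On day 42, 2 were past the size counted (Plvap, and Selp on these 4 UMIs), against 8.59% of 7227 genes higher and 7.28% lower. From day 7 to day 42 Icam1 was lower, against 5.62% of 7239 genes lower and 6.13% higher. With cells thinned to 1000 UMIs the log2 ratio of lymphatic Icam1 on day 7 was 0.66 in 1 random draw and 1.71 in another, on 7 and 3 UMIs at day 0, and on day 42 it was -0.27 and 0.81. Its ratio from day 7 to day 42 was -0.91 without cells that carried a neutrophil marker, short of the size counted. The Selp UMIs of day 42 lay in 3 cells, so 0 were left without the 5 cells with most UMIs. Neutrophil markers summed to 0, 2692 and 230 CPM in these cells, and the log2 ratio of lymphatic Selp on day 7 was 1.92 in all cells and 1.01 in the 91 cells that carried none.

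**Figure D5:**
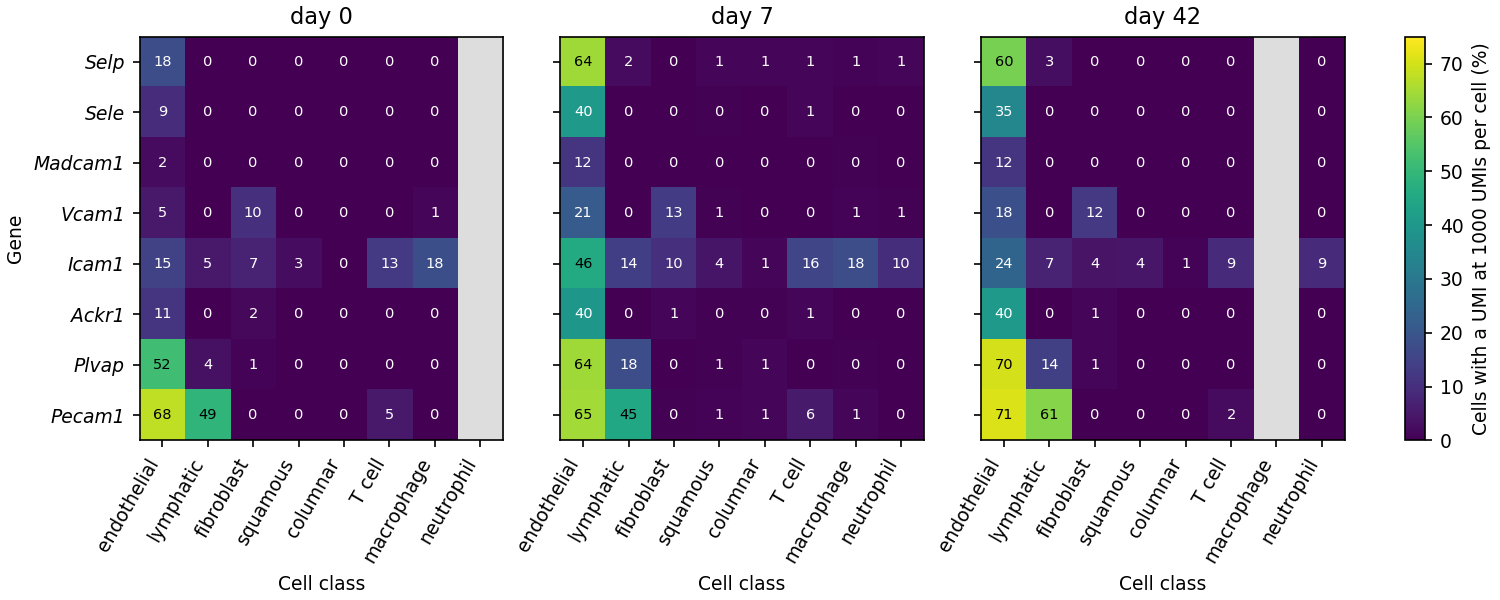
Share of cells with a UMI of each gene after thinning to 1000 UMIs (colour and printed percent), by cell class and day, with 1 library per day and grey where a class held fewer than 50 cells. Selp, Sele, Madcam1 and Ackr1 were near 0% outside the endothelial column, while Icam1 was spread over most classes and Vcam1 was shared with fibroblasts.

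Outside the vessels the members divided into restricted and shared genes. The endothelial class held 79.0%, 87.1% and 93.9% of all Selp UMIs and 84.4%, 89.8% and 91.7% of all Sele UMIs. For Plvap it held 83.9%, 86.7% and 91.8%, and for Madcam1 62.5% (of 16 UMIs), 86.9% and 96.0%. Squamous cells held 11.3% of Selp UMIs on day 7, and 83 of the 9035 squamous cells, those with UMIs of at least 3 endothelial markers, carried 56.2% of these 976 UMIs. Of Ackr1 UMIs on day 0, 26.8% were in endothelial cells and 53.1% in fibroblasts, which were more numerous (1436 cells) but stood at 17.3 CPM. By level the order for Ackr1 on day 0 was endothelial (135 CPM), muscle-like (21.4) and fibroblast.

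Fibroblasts stood above endothelial cells in Vcam1 on day 0. They stood at 110 CPM against 47.4 in endothelial cells, and held 85.3% of all Vcam1 UMIs. On day 7 and day 42 endothelial cells were above fibroblasts, at 402 against 148 CPM and 255 against 140.1 CPM. In fibroblasts Vcam1 was 1.34-fold of day 0 on day 7 (1.16 to 1.55) and 1.28-fold on day 42 (1.02 to 1.58), with neither ratio past the size counted. Macrophages had 13 Vcam1 UMIs on day 0 and 15 on day 7, with a log2 ratio of -1.01, where 9.29% of 6029 genes were lower.

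Icam1 was found in most classes. On day 0 its level was 335 CPM in macrophages, next to 330 in endothelial cells, which do not differ beyond their counting intervals, then 170 in T cells, 98.5 in fibroblasts, 53.8 in lymphatic cells, 24.0 in squamous cells and 4.47 in columnar cells. On day 7 endothelial cells led at 1114 CPM, followed by lymphatic cells at 269, macrophages at 213, T cells at 169, neutrophils at 126 and fibroblasts at 118. Squamous cells, at 45.6 CPM, held 57.8% of all Icam1 UMIs on day 7 and made up most of the library. Fibroblast Icam1 stood at 98.5, 118 and 42.3 CPM. On day 7, 0 of the 2 members that reached 20 CPM in fibroblasts (Icam1 and Vcam1) were past the size counted, against 3.60% of 7176 genes higher and 3.26% lower. On day 42 Icam1 was lower than on day 0, against 1.43% of 7256 genes lower and 2.21% higher, and lower than on day 7, against 2.92% of 7251 genes lower and 2.52% higher. The ratio to day 0 was -1.05 on the log2 scale, close to the size counted, and -0.96 without the 5% of cells with the highest doublet scores. It rested on 29 UMIs in 222 fibroblasts on day 42, with a median depth of 2645.5 UMIs. In the same fibroblasts, markers of other cells were higher on day 42 than on day 0. These were Krt5, Krt14, Acta2, S100a8, S100a9, Ppbp and the red cell markers, while 0 of 6 fibroblast markers were past the size counted. The part of such RNA in the Icam1 ratio was not tested.

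Genes that act beside the members in adhesion and transmigration did not follow them as a group. Of 20 such genes 16 reached 20 CPM, and 1 was higher and 4 were lower at both days. Over all genes, 6.16% were higher and 7.19% lower on day 7, and 6.52% and 7.44% on day 42. The count of 1 higher is thus near the share over all genes. The median log2 ratio of the 16 was -0.33 on day 7 and -0.30 on day 42. The lower genes were Podxl, a sialomucin, Jam3, a junctional molecule, Cx3cl1, a membrane-bound chemokine, and Cav1, the coat protein of caveolae. Jam3 went from 228 CPM to 16.2 and 29.5, and Podxl from 740.1 to 155 and 228. The ICAM family member Icam2 stood at 121, 144 and 121 CPM, and the junctional cadherin Cdh5 at 712, 763 and 502 CPM.

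The gene that was higher was Glycam1, on chr15:103562759-103565081, a mucin of high endothelial venules that is decorated to bind L-selectin. It had 0 UMIs in 100 cells on day 0, then 52 UMIs on day 7 and 767 on day 42. A floor of 3 UMIs on day 0 is 7.12 CPM, and the exact Poisson upper limit for 0 UMIs is 8.75 CPM. The day 42 level of 2060.0 CPM (1917 to 2211) was 289 times that floor, and the day 7 level of 21.1 CPM (15.8 to 27.7) was 2.96 times. Against the Poisson limit both are smaller. On day 7, 5 cells held 71.2% of the 52 UMIs and 15 UMIs remained without them. On day 42, 33 of 122 cells (27.05%, 19.4 to 35.8) carried it, and 5 cells held 53.3% of its UMIs. All 33 of these cells also had a Selp UMI, against 55 of the other 89 cells. Ackr1 stood at 1064 CPM in the cells with Glycam1 and at 757 in those without, Madcam1 at 188 against 98.2, and Vcam1 in the other order at 133 against 319. Chst4, which sulfates such mucins, had 0, 7 and 4 UMIs.

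Of 10 chemokines, the signals that stop a rolling cell, 7 reached 20 CPM on day 7, where 6 were higher and Cxcl12 was lower. Over all genes, 6.16% were higher and 7.19% lower on day 7, and 6.52% and 7.44% on day 42. Cxcl1, which draws neutrophils, stood at 78.3, 713 and 10.7 CPM, and was detected in 155 of 312 cells on day 7. Ccl2, which draws monocytes, stood at 9.49, 174 and 0 CPM, but 5 cells held 96.3% of its day 7 UMIs. On day 42, Cxcl9 (0, 69.8 and 72.5 CPM) and Cxcl10 (83.0, 245 and 223 CPM), both induced by interferon, were higher, and Cxcl1 and Cxcl12 were lower. Few cells carried these 2: on day 42, Cxcl10 had 83 UMIs in 4 cells, 74 of them in 1 cell, and Cxcl9 had 27 UMIs in 3 cells. Other classes moved too on day 7, so these changes were not limited to endothelial cells. Cxcl1, Cxcl2, Cxcl5, Ccl2 and Ccl7 were higher in fibroblasts. Cxcl2, Ccl2 and Ccl7 were higher in lymphatic cells, where Cxcl12 was lower. Higher were also Cxcl2, Cxcl5 and Ccl2 in T cells, and Cxcl2, Cxcl5 and Ccl5 in macrophages. In squamous cells Cxcl1, Cxcl2 and Cxcl5 were higher, and in columnar cells Cxcl2, Cxcl5 and Ccl21a. Neutrophils held Cxcl2 at 12525 CPM on day 7, when neutrophil markers summed to 2847 CPM in the endothelial cells. What part of the chemokine levels came with those markers was not tested. Of 11 cytokine-induced NF-kappaB genes, 1 was higher on day 7 (Csf3, at 30.8, 764 and 51.0 CPM) and 1 was lower (Irf1). On day 0, 12 of the 13 Csf3 UMIs lay in 1 cell, and Csf3 was also higher on day 7 in lymphatic cells, fibroblasts and macrophages. On day 42 none of the 11 was higher than on day 0 and Irf1 was lower. These counts of 1 or none are near the shares over all genes. Against day 7, 5 of the 11 were lower on day 42 (Nfkbia, Tnfaip3, Tnfaip2, Csf3 and Il6), where 3.37% of all genes were lower. Nfkbia, the inhibitor that NF-kappaB induces, stood at 1084, 2163 and 1072 CPM.

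The partners of the members on white blood cells were present in the same libraries. Selplg, which encodes the selectin ligand PSGL-1, stood at 548 CPM in neutrophils on day 7 and 643 on day 42, and at 261, 289 and 316 CPM in T cells over the 3 days. Itgam and Itgb2, the chains of Mac-1, stood at 330 and 303 CPM in neutrophils on day 7 and at 238 and 274 CPM on day 42. Itga4 and Itgb7, the chains of the receptor for MAdCAM-1, stood at 143 and 391 CPM in T cells on day 0, 133 and 280 CPM on day 7, and 125 and 311 CPM on day 42. Neutrophils carried Itgb7 at 1.90 and 8.94 CPM. There were 5 neutrophils on day 0, 1513 on day 7 and 448 on day 42, so no neutrophil level is given for day 0.

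The genes most like each member were sought by Pearson correlation of log2 of CPM plus 10 over 27 class-by-day points, among 11433 genes. The points share libraries and the contrast of endothelium with other classes, so the values are a description. Selp was most like Sele (0.971), then Lhx6 (0.967) and Tmem252 (0.964). Lhx6 also led for Sele (0.996) and Ackr1 (0.969), and Fam167b (0.991) and Lhx6 for Madcam1. Plvap was most like Grrp1 (0.990) and Pecam1 like Icam2 (0.988). Icam1 (Map3k8, 0.881) and Vcam1 (Mgp, 0.937) had weaker nearest genes.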

How the data were processed

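The authors deposited raw counts for each gene in each cell. A count is a UMI by the 10x 3' chemistry in the labels' protocol. Per the submitters' processing notes, Cell Ranger 3.0.2 and the mm10 build were used. The authors' deposited cell table gave each cell its day, cluster and cell type name, and a size factor, the ratio of the cell's total to the geometric mean of totals, which was not used for levels. The filter on cells, and whether counting used strand, are not given in the sources used here, so reads of a member and an antisense gene cannot be told apart. Genes on the opposite strand over the members had at most 20 UMIs each in endothelial cells on any day.

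UMIs were summed per class and library and divided by the class total (CPM). Keratinocytes are called squamous here, and colonocytes, secretory cells and enteroendocrine cells columnar. Shares have exact Clopper-Pearson intervals, levels exact Poisson intervals, and folds exact conditional binomial intervals, all at 95%. Classes with at least 50 cells were compared, and doublets were treated by an alternative with Scrublet, leaving out the 5% highest scores. The named genes are the 8 members, lists counted whole, and the 3 genes most like each member. Counting was checked on simulated data. Members and lists were chosen with earlier results of these data known. Coordinates come from GENCODE M21, which held 31011 of 31053 gene identifiers. Tools were Python 3.11.15 with scipy 1.17.1 for intervals, scanpy 1.11.5 for doublet scores, pandas 2.3.3, numpy 2.4.6 and matplotlib 3.10.9.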

Additional observations from a re-analysis of the deposited data

Results flagged for a closer look

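Vcam1 differed in opposite directions in 2 classes at day 7 against day 0. Its log2 ratio was 2.84 in endothelial cells and -1.01 in macrophages, a gap of 3.86. The macrophage ratio rests on 13 and 15 UMIs, in 91 and 278 cells. In the same macrophages the 6 fibroblast markers summed to 638 CPM at day 0 and 64.8 at day 7, with 5 of the 5 that reached 20 CPM lower, and their part in the result was not tested. The difference between the classes was not tested, since each day had 1 library.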

How the results depend on the processing

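Each result was recomputed under up to 16 alternatives, of which 6 were chosen after seeing the data: leaving out cluster 27, cells with a venule list UMI, cells without a capillary list UMI, cells without a neutrophil or a platelet marker UMI, and a second random draw of the thinning. The counts of members higher in endothelial cells, 6 at day 7 and 5 at day 42, were the same under 15 of them. In cells without a capillary list UMI they were 1 and 1, and there the log2 ratio turned to -0.81 for Madcam1 at day 7 and to -0.11 for Selp at day 42. There Icam1 at day 42 also turned, from 0.56 to -0.84, and Madcam1 from day 7 to day 42, from -0.63 to 0.92. The cause was not tested. In lymphatic cells and fibroblasts and from day 7 to day 42, alternatives were also added after seeing the data. Over all values, 597 lay within the counting error of the value reported, or for counts within 1.5 times, 83 moved further, and 2 ratios of at least 1 changed sign. The alternative without a minimum CPM leaves every ratio as it was, and all 8 members passed that minimum in endothelial cells. Its values, among the 597 and the 15 above, are the same by construction and are no check. Counting small ratios too, 20 of 384 values in endothelial cells had another sign, 5 of them against day 0 and 15 from day 7 to day 42. Vcam1 at day 7 ranged from 2.35 to 5.59. The highest came from a thinning that drew 0 of its day 0 UMIs, where 4.34 were expected, and the draw used for the shares gave 2.81. Median-of-ratios scaling gave Selp 2.51 at day 7. No paired analysis was possible because each day has 1 library and no replicate numbers. Among the members in endothelial cells, depth limits Madcam1 and Vcam1 at day 0 most, with 10 and 20 UMIs. The lymphatic ratios of Selp, Plvap and Icam1 rest on 0, 5 and 11 UMIs at day 0.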
